A study of Homo sapiens with 16 samples.

Results

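The 4 libraries compared here came from A549/cDDP, a cisplatin-resistant derivative of the established human lung adenocarcinoma line A549. In 2 of them the cells had received a gapmer that targets SCAT7, a long noncoding RNA, and in the other 2 the cells had not been transfected. They were chosen by their labels alone, 4 of the 16 libraries of the series. A further 2 A549/cDDP libraries, transfected with a control gapmer, served as the other reference, so that each change under the SCAT7 gapmer could be set against both. All 6 libraries were from cells held in the solvent of cisplatin, without the drug, for the last 24 h. Per the labels, A549/cDDP was maintained in medium with cisplatin (printed there as 15 mM, a unit that was not checked here), 35000 cells were seeded per well, 12 pmol of gapmer were delivered with a lipid reagent, and transfected cells were collected 48 h after transfection. For the untransfected cells the labels name neither oligonucleotide nor a mock transfection. A change against untransfected cells therefore holds the effects of the lipid, of any gapmer and of this gapmer together, and a change against the control gapmer holds whatever sets the SCAT7 and control oligonucleotides apart. A single SCAT7 gapmer was used, its sequence and the cause of each difference cannot be read from these data, and the labels do not say whether the 2 libraries of a group were separate cultures.

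A gapmer is a short antisense oligonucleotide with modified ends and a DNA centre, which leads the cell's RNase H to cut the RNA it pairs with. Nucleic acids delivered into a cell can also be noticed by its sensors (RIG-I, MDA5, TLR3, cGAS), which through interferons and STAT factors turn on interferon-stimulated genes, many with a GAAA-repeat element in their promoters. p53 raises damage-induced genes such as CDKN1A, which encodes the cell cycle inhibitor p21, and in arrested cells genes of S phase and mitosis are repressed, the latter often through a short TTTGAA or TTTAAA element near their start.

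The promoters below are shown because the choice of reference bears differently on the genes. IFI6, IFI27 and IFIT1 rose against untransfected cells and were not called against the control gapmer, whereas KIF20A and CENPF, which encode a kinesin and a kinetochore protein of mitosis, stood lower under the SCAT7 gapmer against either reference. Each is the window of 250 bases before the gene's start in RefSeq on GRCh38.p14, written 5′ to 3′ on the gene's strand: IFI6 at chr1:27672193-27672442 (minus strand), IFI27 at chr14:94110486-94110735, IFIT1 at chr10:89392373-89392622, KIF20A at chr5:138178862-138179111 and CENPF at chr1:214602945-214603194 (all plus strand). Capitals mark the interferon-type element (GAAA, any 2 bases, GAAA, on either strand, so that a match on the opposite strand reads TTTC, 2 bases, TTTC) in the interferon genes and TTTAAA in the mitosis genes.
IFI6: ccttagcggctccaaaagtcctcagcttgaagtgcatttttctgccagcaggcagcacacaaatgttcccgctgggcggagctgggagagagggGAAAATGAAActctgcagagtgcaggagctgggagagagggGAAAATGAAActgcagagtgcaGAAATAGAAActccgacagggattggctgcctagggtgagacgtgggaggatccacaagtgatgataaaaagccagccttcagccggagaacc
IFI27: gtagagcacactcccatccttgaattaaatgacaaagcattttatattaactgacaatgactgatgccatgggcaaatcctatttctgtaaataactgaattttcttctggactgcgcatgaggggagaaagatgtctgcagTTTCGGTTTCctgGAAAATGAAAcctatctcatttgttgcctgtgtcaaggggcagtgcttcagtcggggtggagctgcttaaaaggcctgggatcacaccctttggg
IFIT1: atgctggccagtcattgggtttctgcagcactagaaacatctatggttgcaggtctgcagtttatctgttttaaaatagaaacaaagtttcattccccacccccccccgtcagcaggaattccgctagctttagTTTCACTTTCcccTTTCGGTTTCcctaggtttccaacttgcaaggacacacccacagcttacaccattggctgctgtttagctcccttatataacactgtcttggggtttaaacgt
KIF20A: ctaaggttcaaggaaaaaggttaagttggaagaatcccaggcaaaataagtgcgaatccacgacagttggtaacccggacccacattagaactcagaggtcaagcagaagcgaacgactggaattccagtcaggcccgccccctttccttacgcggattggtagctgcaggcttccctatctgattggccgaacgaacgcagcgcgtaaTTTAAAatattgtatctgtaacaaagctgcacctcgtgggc
CENPF: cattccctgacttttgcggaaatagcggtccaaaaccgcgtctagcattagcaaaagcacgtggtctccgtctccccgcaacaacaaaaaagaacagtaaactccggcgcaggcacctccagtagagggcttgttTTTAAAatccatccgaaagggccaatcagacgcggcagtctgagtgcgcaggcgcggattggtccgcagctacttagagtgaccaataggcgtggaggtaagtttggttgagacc
The GAAA repeat was found in 16 of the 26 interferon-stimulated genes with a promoter in the table, 61.5%, against 3.02% of all 35116 promoters, and in none of the 22 mitosis genes with one. TTTGAA or TTTAAA, searched on both strands, was found in 16 of those 22 mitosis promoters, 72.7%, against 21.9% of all promoters. These matches describe letters in a window and were not tested as sites of binding.

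Expression is given as FPKM, fragments per kilobase of gene length scaled to the library's mapped fragments, and a log2 change is a difference of group means of log2(FPKM + 0.5). A gene is called where its adjusted p was under 0.05, and only a called gene is said to have risen or fallen. Depth, recovered from the low FPKM values, ran from 31150000 to 43400000 fragments in the 6 libraries, with 31150000 and 33350000 in the SCAT7 gapmer libraries. These held more genes above 0.5 FPKM (18489 and 17897) than the untransfected (16954 and 16969) or control gapmer libraries (16865 and 16764). Their share of FPKM in processed pseudogenes was 0.136% and 0.119%, against 0.0685% to 0.0784% in the other 4. The part of this in the changes below was not tested, beyond raising the filter on low values. Replicates correlated across genes at 0.991 to 0.996 in the 8 groups of the series. Of the lung markers, the keratins KRT7, KRT8 and KRT18 were high (634 to 3647 FPKM) and KRT19 was 131 to 166 FPKM in the 6 libraries. The surfactant genes SFTPA1, SFTPA2, SFTPB, SFTPC and SFTPD stayed at or under 0.181 FPKM in all 6. SLC34A2, SCGB1A1, MUC5AC and MUC5B stayed at or under 0.153 FPKM. The other lung markers were expressed: ABCA3 at 17.7 to 23.1 FPKM, CDH1 at 2.83 to 5.67, NAPSA at 1.44 to 2.96, EPCAM at 0.71 to 1.63 and NKX2-1 at 0.695 to 1.11. Of 16 markers of other lineages only COL1A1 exceeded 1 FPKM (27.6 to 40.6).

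SCAT7 was taken as the RNA of ELF3-AS1 (ENSG00000234678), an antisense gene on chromosome 1 (GENCODE release 29 on hg38, 201995696 to 202010463, minus strand) that overlaps the start of ELF3. ELF3-AS1 stood at 2.89 and 3.79 FPKM in untransfected cells, at 2.56 and 3.57 with the control gapmer and at 0.594 and 0.837 with the SCAT7 gapmer, the latter values resting on about 103 and 155 reads. Both SCAT7 gapmer libraries lay below all 4 reference libraries. The fall was 1.66 on the log2 scale (SE 0.17, adjusted p = 5.6e-06) against untransfected cells and 1.54 (adjusted p = 7.5e-06) against the control gapmer. The control gapmer itself left ELF3-AS1 at a log2 change of -0.11 from untransfected cells (adjusted p = 0.63), so the loss of the target remained at about the same size. ELF3, the epithelial ETS factor encoded on the other strand, was 37.0 and 35.2 FPKM untransfected, 37.6 and 36.7 with the control gapmer and 48.9 and 50.2 under the SCAT7 gapmer. It rose by 0.45 ± 0.06 (SE) against untransfected cells and by 0.41 ± 0.06 against the control gapmer. How strand was handled in counting is not given in the sources used here, so reads of the 2 overlapping genes may be mixed.

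Against untransfected cells 9164 of 17198 genes were called (53.3%), 5264 higher (30.6%) and 3900 lower (22.7%). Against the control gapmer 9605 were called (55.8%), 5702 higher (33.2%) and 3903 lower (22.7%). Each list count below is to be read beside these shares over all genes. The 2 comparisons share the 2 SCAT7 gapmer libraries, so a shared call is no independent repeat. Of the 9605 calls against the control gapmer, 6344 remained against untransfected cells with the same direction (66.0%), 2814 vanished (29.3%) and 447 reversed (4.65%). A further 2373 genes, 25.9% of the calls against untransfected cells, were called against those only. With libraries rescaled by median ratios, the balance of directions moved: 4316 higher and 4926 lower against untransfected cells, 4678 and 4837 against the control gapmer, with 66.1% of the latter calls remaining.

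Of the 5702 rises against the control gapmer 3918 remained (68.7%), and of the 3903 falls 2426 (62.2%); the difference was not tested. Among changes of at least 2-fold against the control gapmer, 892 of the 959 rises remained (93.0%), and 370 of the 420 falls (88.1%). Vanishing of a call does not by itself show a difference between references. That difference is the change of the control gapmer against untransfected cells, which was called for 6828 genes (39.7%), 3562 higher (20.7%) and 3266 lower (19%). It was called in the opposite direction for 988 of the 1501 vanished rises and 911 of the 1313 vanished falls; for the other 513 and 402 no difference was shown. All 447 reversed genes had it called, which was fixed in advance: calls of opposite direction against the 2 references add up to that difference. Both SCAT7 gapmer libraries lay above all 4 reference libraries for 5543 genes (32.2%) and below them for 3865 (22.5%). For 1205 of the vanished rises and 1143 of the vanished falls the 95% interval of the change against untransfected cells lay within 0.5 of 0 on the log2 scale.

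**Figure D1:**
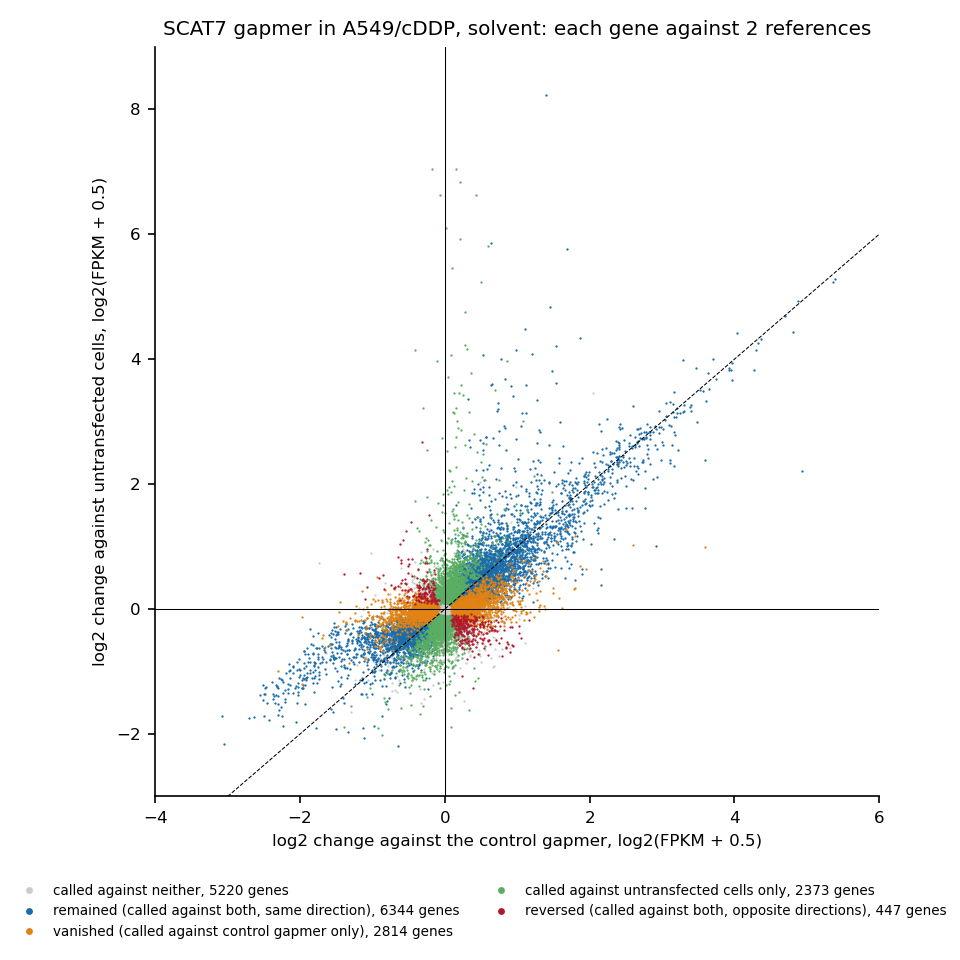
Each point is 1 of 17198 genes, placed by its log2 change under the SCAT7 gapmer against the control gapmer (horizontal) and against untransfected cells (vertical), and coloured by whether the call remained, vanished or reversed; the dashed line marks equal changes. Of the 3918 rises that remained, 2582 had no difference between the references called. Such a difference was called for 591 that lie above the line and 745 that lie below it. The column above 0 on the horizontal axis holds interferon-stimulated genes called against untransfected cells, and many of the strong falls lie above the line, smaller against untransfected cells.

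Most of the rise of the damage-induced genes did not remain: 26 of 29 rose against the control gapmer and none fell, while against untransfected cells 12 rose and 10 fell. The list's median log2 change was 0.68 against the control gapmer and -0.08 against untransfected cells, beside 0.06 and 0.02 over all genes. Under the control gapmer itself 27 of the 29 stood lower than in untransfected cells (median -0.70) and none higher. So 12 rises remained, 7 vanished and 7 reversed, and 3 members fell against untransfected cells only. Under median ratio scaling the list had 9 rises and 12 falls against untransfected cells.

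CDKN1A was 580 and 573 FPKM in untransfected cells, 266 and 269 with the control gapmer and 626 and 623 under the SCAT7 gapmer. The SCAT7 gapmer libraries were close to the untransfected ones and far above those of the control gapmer. Its rise of 1.22 ± 0.03 (SE) against the control gapmer shrank to 0.12 ± 0.03 against untransfected cells (adjusted p = 0.0030), a call that median ratio scaling ended (0.04, adjusted p = 0.29). MDM2, which encodes the ubiquitin ligase of p53, was 291 and 290, 165 and 171, and 484 and 411 FPKM in the same order, so both SCAT7 gapmer libraries exceeded all others. It rose by 0.62 ± 0.07 against untransfected cells and 1.40 ± 0.07 against the control gapmer.

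GADD45A, a stress-induced growth arrest gene, had nearly the same level in both references: 149 and 154 FPKM untransfected, 142 and 144 with the control gapmer and 497 and 393 under the SCAT7 gapmer, a rise of 1.54 ± 0.14 against untransfected cells and 1.62 ± 0.14 against the control gapmer. GDF15, a secreted stress cytokine, rose by 0.88 and 1.56, and SESN2, RRM2B, AEN, BBC3, FAS, TNFRSF10B, PLK2 and PPM1D were the other members whose rise remained. The rises of BBC3 and PPM1D against untransfected cells were not called under median ratio scaling or without untransfected replicate 1 or 2 or SCAT7 gapmer replicate 1. TP53INP1, a p53 partner in cell death and autophagy, was 18 and 17.7 FPKM untransfected, 6.03 and 5.65 with the control gapmer and 11.8 and 11.7 under the SCAT7 gapmer. Its libraries lay between those of the 2 references, and its rise of 0.95 against the control gapmer was a fall of 0.59 against untransfected cells (adjusted p = 4.0e-06). FDXR (0.46 against -0.72), BTG2 (1.03 against -0.27), ZMAT3 (1.17 against -0.17), SESN1, POLH and RPS27L (the last not without SCAT7 gapmer replicate 1) reversed in the same sense; the fall of ZMAT3 lost its call without 1 untransfected library (replicate 1, adjusted p = 0.072) or 1 SCAT7 gapmer library (replicate 2, adjusted p = 0.087). XPC, PHLDA3, PLK3, SPATA18, TIGAR, CCNG1 and TNFRSF10C vanished. TIGAR and CCNG1 were called against untransfected cells under median ratio scaling, where the list had 9 reversals. TNFRSF10C did not stay uncalled without SCAT7 gapmer replicate 1. TP53I3, an oxidoreductase gene, was 370 and 381, 230 and 211, and 202 and 198 FPKM, a fall of 0.91 against untransfected cells with a change of -0.14 against the control gapmer (adjusted p = 0.17).

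**Figure D2:**
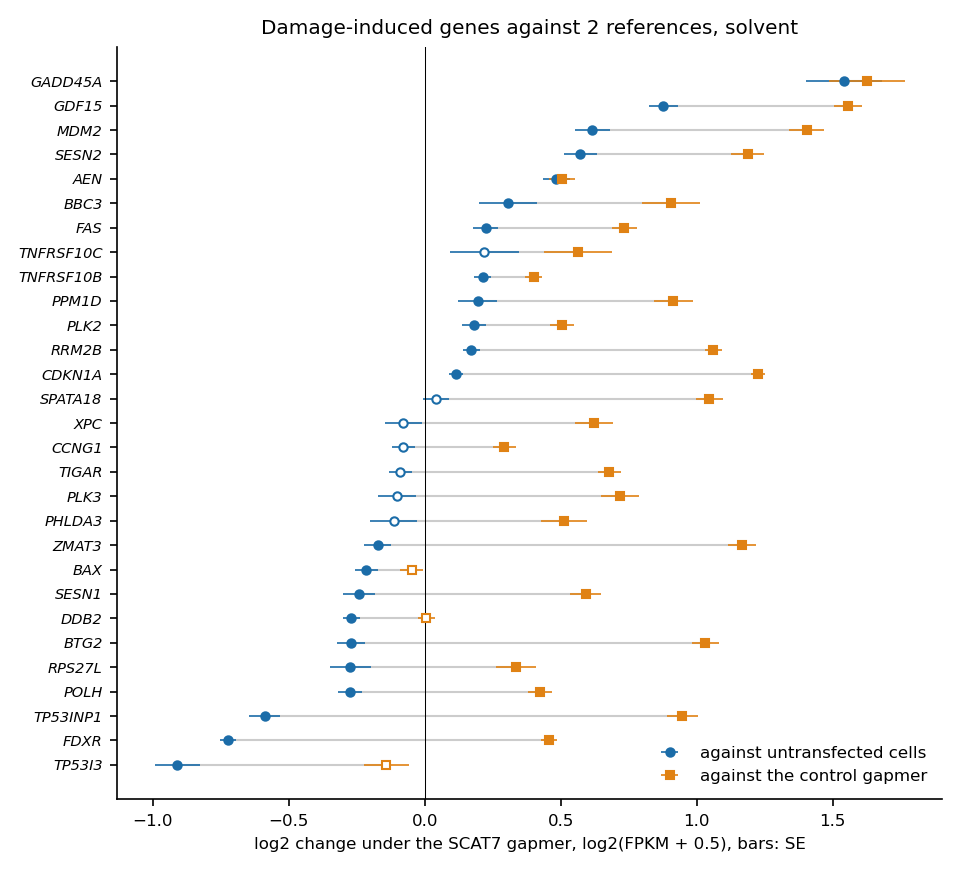
Log2 changes of the 29 damage-induced genes under the SCAT7 gapmer against untransfected cells (circles) and against the control gapmer (squares), with SE; filled symbols are called genes. The circles run from -0.91 for TP53I3 to 1.54 for GADD45A around a median of -0.08, while 26 squares are called above 0.

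The fall of the mitosis genes remained for every member tested: 27 of 27 fell against untransfected cells and 27 of 27 against the control gapmer, also under both rescalings and without any 1 of the 6 libraries. It was smaller against untransfected cells in each of the 27, with a median of -1.21 against -2.24, and all 27 stood higher under the control gapmer than in untransfected cells (median 0.94). KIF20A was 22.6 and 22.2 FPKM untransfected, 42.0 and 42.3 with the control gapmer and 4.22 and 5.11 under the SCAT7 gapmer. It fell by 2.16 ± 0.09 (SE, adjusted p = 8.4e-09) against untransfected cells and by 3.05 ± 0.09 against the control gapmer. Its SCAT7 gapmer libraries lay below the 4 others, which was a condition for naming the largest falls that remained. TOP2A, the topoisomerase that untangles chromosomes, was 269 and 273, 471 and 471, and 72.8 and 94.3 FPKM, a fall of 1.71 against untransfected cells and 2.5 against the control gapmer. CENPF (-1.78), GTSE1 (-1.75), DLGAP5 (-1.74) and the helicase gene PIF1 (-1.71 against untransfected cells, -3.08 against the control gapmer) were among the strongest falls of all genes in both comparisons, with PRR11 (-1.87).

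S phase genes followed the same order of levels. Of 26 tested, 25 fell against untransfected cells (median -0.57) and 26 against the control gapmer (median -1.53), and 26 were higher under the control gapmer than untransfected (median 1.09). TK1, the thymidine kinase of S phase, was 102 and 95.5, 211 and 205, and 38.6 and 43.8 FPKM in untransfected, control gapmer and SCAT7 gapmer cells, a fall of 1.25 ± 0.08 against untransfected cells and 2.32 ± 0.08 against the control gapmer. RRM2, a subunit of ribonucleotide reductase, fell by 1.02 and 2.19. For MCM2 and MCM5, subunits of the replicative helicase, the falls that remained were small: MCM2 was 30.9 and 30.7, 68.5 and 66.5, and 24.8 and 27.0 FPKM, a change of -0.24 against untransfected cells and -1.37 against the control gapmer, and MCM5 changed by -0.22 and -1.53. The single member that vanished was the cyclin gene CCNE2 (6.33 and 8.62, 17 and 18.5, 5.69 and 6.4 FPKM), at -0.27 against untransfected cells with adjusted p = 0.068. That gene was called lower without untransfected replicate 1 (-0.48) and under median ratio scaling (-0.34) and quantile normalization (-0.46).

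Genes of the Fanconi anaemia and homologous recombination pathway, which repair cross-links and broken ends, changed less uniformly. Against the control gapmer 22 of 26 fell and 1 rose, with a median of -1.15; against untransfected cells 15 fell and 5 rose, with a median of -0.37. FANCI, which forms a clamp with FANCD2 at cross-links, was 70.1 and 72.1, 134 and 136, and 37.0 and 39.1 FPKM, a fall of 0.90 against untransfected cells and 1.81 against the control gapmer. RAD54L, a motor protein of homologous recombination, fell by 1.2 and 2.17, and the fall of BRCA1 (-0.45 and -1.21) also remained. BRIP1, a helicase that binds BRCA1, reversed: it was 10.8 and 11.0 FPKM untransfected, 28.6 and 28.6 with the control gapmer and 20.3 and 17 under the SCAT7 gapmer, a rise of 0.74 ± 0.07 against untransfected cells beside a fall of 0.61 against the control gapmer. BRCA2 and RBBP8 reversed too. BRCA2 had no call against untransfected cells under either rescaling or without untransfected replicate 1 or 2 or SCAT7 gapmer replicate 1. The changes of FANCC, FANCE, FANCL and SLX4 vanished. FANCC and SLX4 were called against untransfected cells under both median ratio scaling and quantile normalization. Under each of these 17 members fell against untransfected cells and 18 calls remained. FPKM from cultures cannot tell fewer cycling cells from less RNA per cell.

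**Figure D3:**
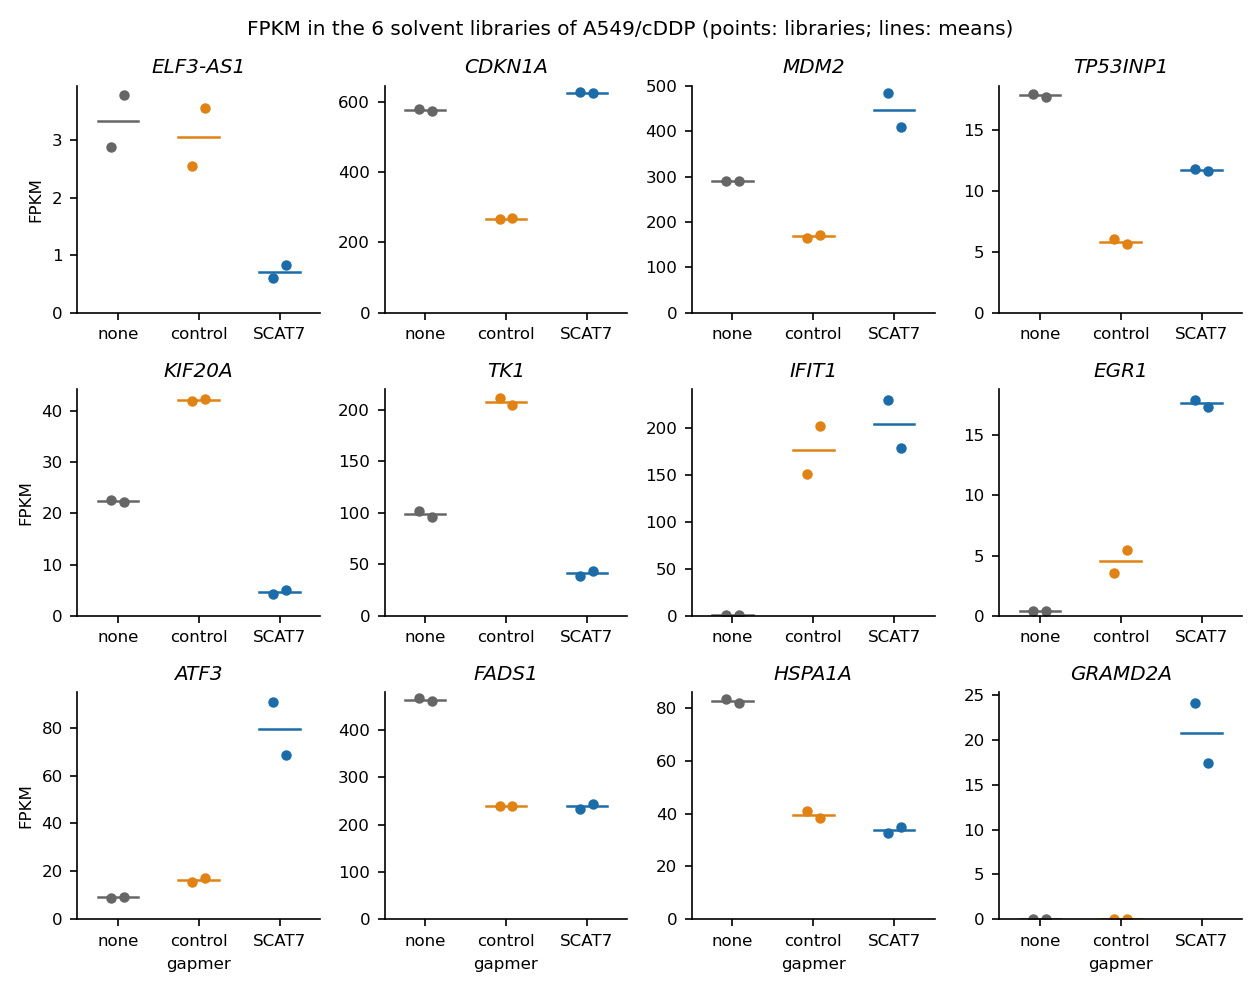
FPKM of 12 genes in the 6 solvent libraries of A549/cDDP (linear axes from 0; points are libraries, lines are group means). The SCAT7 gapmer libraries are lowest for ELF3-AS1, KIF20A and TK1, level with the control gapmer for IFIT1 and FADS1, near the untransfected level for CDKN1A, and between the references for TP53INP1.

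The interferon response was seen with untransfected cells as reference and was largely missing against the control gapmer. All 33 interferon-stimulated genes tested, of 34 listed, rose against untransfected cells, with a median log2 change of 4.07, and all 33 were also higher under the control gapmer than untransfected, with a median of 3.86. Against the control gapmer 9 rose and 1 fell (median 0.22). IFIT1, a protein that binds foreign RNA and whose promoter is shown above, was 1.24 and 1.33 FPKM untransfected, 151 and 202 with the control gapmer and 230 and 179 under the SCAT7 gapmer. The libraries of the 2 gapmers overlapped, and the changes were 6.83 ± 0.16 (SE, adjusted p = 1.1e-10) against untransfected cells and 0.21 ± 0.16 (adjusted p = 0.27) against the control gapmer. IFI6, an interferon-induced survival protein, reached 1546 and 1369 FPKM from 14.3 and 14.0, beside 1424 and 1643 with the control gapmer. OAS2, which makes the second messenger of RNase L, rose by 7.05, IFI27 by 7.05 and XAF1 by 6.63, none of them called against the control gapmer. RSAD2, the antiviral enzyme viperin, differed between the gapmers as well: 0.304 and 0.380 FPKM untransfected, 74.7 and 123 with the control gapmer and 336 and 190 under the SCAT7 gapmer, 8.23 against untransfected cells and 1.39 ± 0.32 against the control gapmer. IFIT2, IFIT3, IFIT5, ISG20, STAT2, SAMD9, DDX60 and PARP9 were the other members called higher in both. That count of 9 rests on single libraries: it was 3 without control gapmer replicate 1 or SCAT7 gapmer replicate 1, and 15 without SCAT7 gapmer replicate 2, whereas the 33 rises against untransfected cells held without any of the 6.

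Of 19 genes for nucleic acid sensors and RNase H, 12 rose and 3 fell against untransfected cells (median 1.13), beside 30.6% and 22.7% of all genes. Against the control gapmer 10 rose and 4 fell (median 0.20), beside 33.2% and 22.7%, so falls were no more frequent than over all genes. The 10 became 6 without control gapmer replicate 1 and 7 without SCAT7 gapmer replicate 1. RIGI, which detects RNA ends, was 12.4 and 12.5, 66.2 and 88.9, and 147 and 110 FPKM, a rise of 3.31 against untransfected cells and 0.73 against the control gapmer. IFIH1, encoding the long-RNA sensor MDA5, rose by 4.0 and 0.77. ZBP1, a sensor of left-handed nucleic acid, rose mainly under the SCAT7 gapmer: 0.0174 and 0.0406, 0.188 and 0.376, and 4.28 and 3.09 FPKM, a rise of 2.97 ± 0.18 and 2.42 ± 0.18. RNASEH1, the nuclease that gapmers recruit, was not called in either comparison (0.09 and -0.09), though it was against the control gapmer under median ratio scaling. RNASEH2A fell in both comparisons (-0.97 and -1.79). IRF3 was called in neither, and the fall of CGAS against the control gapmer (-0.30) vanished.

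Cytokine genes of the NF-kB type rose against both references and by more against untransfected cells. Of 20 tested, 19 rose and none fell in each comparison, 18 of them the same genes, with medians of 1.52 and 0.73. Under the control gapmer itself 15 of the 20 were higher than untransfected and 2 lower (median 0.61); neither fall was called without untransfected replicate 1, control gapmer replicate 1 or control gapmer replicate 2. CXCL8, the neutrophil attractant, was 98.4 and 115 FPKM untransfected, 216 and 230 with the control gapmer and 520 and 493 under the SCAT7 gapmer, a stepwise order of groups without overlap, with rises of 2.24 and 1.18. CCL20 rose by 3.62 and 1.53, IL1A by 3.25 and 2.61, CXCL3 by 2.41 and 1.01 and IL6 by 2.2 and 1.51. IL1B rose by 1.34 and 1.76. CCL2, a monocyte attractant, rose by 1.67 against untransfected cells but 0.16 against the control gapmer, a call lost under median ratio scaling and without control gapmer replicate 1 or SCAT7 gapmer replicate 1, and IL32 was the member whose rise vanished.

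Immediate early and stress genes also remained. All 18 immediate early genes tested rose against untransfected cells (median 1.02; 17 under either rescaling), with 14 rises and 2 falls against the control gapmer (median 0.76). EGR1, a transcription factor induced within minutes of a stimulus, was 0.395 and 0.393, 3.58 and 5.48, and 17.9 and 17.3 FPKM, a rise of 4.34 ± 0.19 and 1.87 ± 0.19. FOS rose by 3.13 and 1.07, and JUN by 1.01 and 0.99, the latter with no difference shown between control gapmer and untransfected cells (0.02, adjusted p = 0.92). MYC and NR4A1 reversed, being higher than untransfected (0.15 and 0.36) and lower than with the control gapmer (-0.37 and -0.69). The rise of MYC was not called under median ratio scaling, nor that of NR4A1 after quantile normalization or without untransfected replicate 2 or SCAT7 gapmer replicate 1. ATF3, which belongs to this list and to the integrated stress response, was 8.92 and 9.33, 15.4 and 17.1, and 90.7 and 68.4 FPKM, a rise of 3.04 ± 0.13 and 2.25 ± 0.13.

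In the integrated stress response, where phosphorylated eIF2α raises ATF4 and its targets, 17 of 22 genes rose and 3 fell against untransfected cells (30.6% and 22.7% of all genes). Against the control gapmer 14 rose and 3 fell (33.2% and 22.7% of all genes). The medians were 0.40 and 0.39. DDIT3, the factor CHOP, was 15.0 and 14.0, 22.9 and 21.9, and 84.5 and 69.0 FPKM and rose by 2.36 and 1.75. CHAC1 rose by 1.72 and 1.18 and TRIB3 by 1.71 and 1.31. ATF4 itself rose by 0.60 against untransfected cells and 0.09 against the control gapmer, the latter not called under median ratio scaling or without any 1 of the 4 gapmer libraries, and SLC7A11, the cystine transporter gene, was a rise that vanished (0.45 against the control gapmer, and adjusted p = 0.96 against untransfected cells).

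Genes of cholesterol and fatty acid synthesis included 10 reversals among 26 tested. Against untransfected cells 20 fell and 3 rose (median -0.39), and against the control gapmer 12 rose and 2 fell (median 0.13), while 22 were lower under the control gapmer than untransfected (median -0.64). LSS, the cyclase that forms lanosterol, was 41.5 and 39.7 FPKM untransfected, 21.1 and 20.1 with the control gapmer and 28.2 and 28.1 under the SCAT7 gapmer. It lay between the references, 0.44 above the control gapmer on the log2 scale, with a change of -0.52 against untransfected cells. SQLE (-0.47 and 0.31), MSMO1 (-0.36 and 0.61) and SCD (-0.63 and 0.23) reversed likewise, SCD without a call against the control gapmer under median ratio scaling or without replicate 2 of either gapmer. The desaturase genes FADS1 (468 and 462, 239 and 239, 234 and 243 FPKM) and FADS2 fell by 0.96 and 0.92 against untransfected cells only. Under median ratio scaling the rises against the control gapmer were 9 and the reversals 8.

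**Figure D4:**
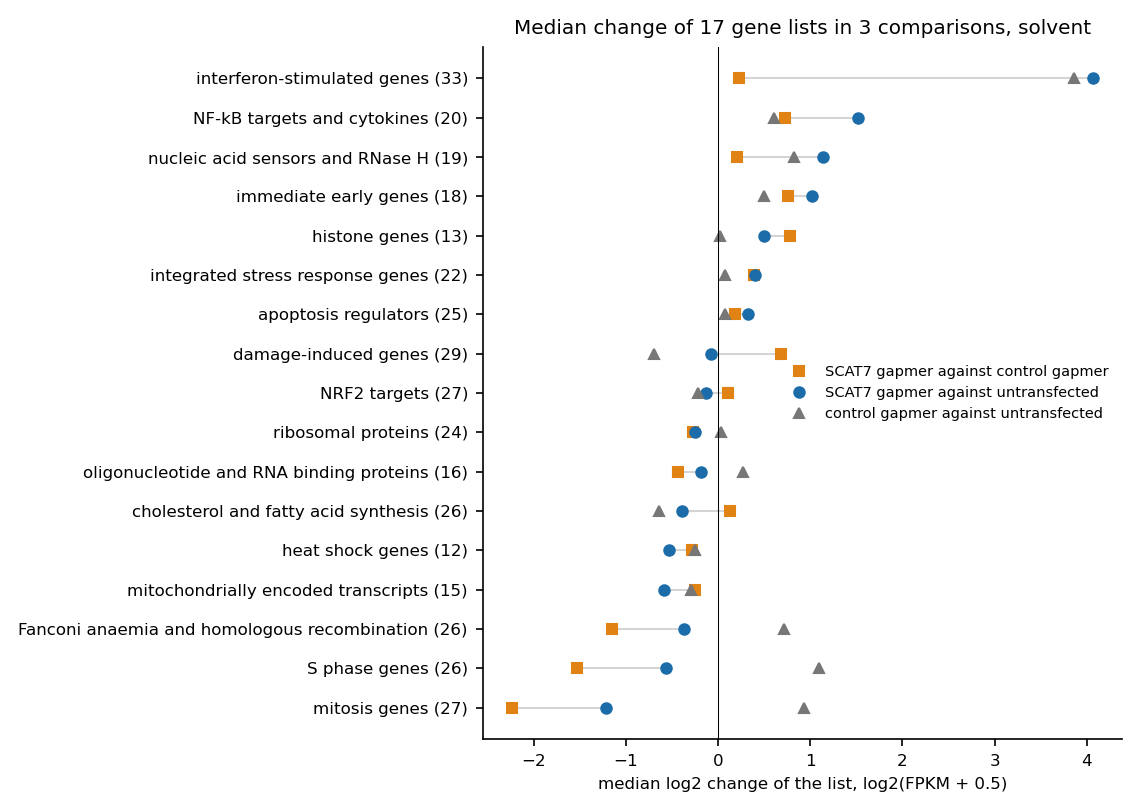
Median log2 change of 17 gene lists (numbers tested in brackets) for the SCAT7 gapmer against the control gapmer (squares) and against untransfected cells (circles), and for the control gapmer against untransfected cells (triangles). Mitosis genes are at -2.24 and -1.21, damage-induced genes at 0.68 and -0.08, and interferon-stimulated genes at 0.22 and 4.07.

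Heat shock genes were lower against both references and by more against untransfected cells: 11 of 12 fell and none rose (median -0.54), and 9 fell and 1 rose against the control gapmer (median -0.29). HSPA1A, the inducible HSP70, was 83.5 and 82.0, 41.1 and 38.2, and 32.7 and 34.9 FPKM, a fall of 1.28 ± 0.05 against untransfected cells and 0.23 ± 0.05 against the control gapmer. HSP90AA1 fell by 0.72 and 0.44. Reads of HSPA1A and its near-identical copy HSPA1B may be divided between them.

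Proteins that bind oligonucleotides and RNA made up a list of 16, of which 12 fell and 1 rose against untransfected cells (median -0.19) and 15 fell and 1 rose against the control gapmer (median -0.43). Of all genes 22.7% fell in each comparison. The 12 falls became 7 without SCAT7 gapmer replicate 1 and 8 without untransfected replicate 2. YBX1, the cold shock domain protein, was 447 and 453, 488 and 466, and 328 and 357 FPKM; it fell by 0.40 ± 0.04 against untransfected cells and 0.48 ± 0.04 against the control gapmer. HNRNPK, which binds poly(C) and acts with p53, was 434 and 443, 482 and 484, and 429 and 426 FPKM. Its fall of 0.18 against the control gapmer (adjusted p = 0.0040) vanished: the change against untransfected cells was -0.04, with a 95% interval from -0.13 to 0.06. TOP1, the topoisomerase that relieves torsion, was 44.2 and 48.3, 46.8 and 48.0, and 57.8 and 56.0 FPKM and rose by 0.30 and 0.26.

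Ribosomal protein genes fell in 17 of 24 cases against untransfected cells and in 19 against the control gapmer, with medians of -0.25 and -0.27 and no rise, beside 22.7% of all genes falling in each. The falls against untransfected cells numbered 9, with 2 rises, after quantile normalization, and 10 without SCAT7 gapmer replicate 1. Against the control gapmer they numbered 9, with 2 rises, after quantile normalization and 13 without control gapmer replicate 1. Of 15 mitochondrially encoded transcripts 13 fell and 1 rose against untransfected cells (median -0.59), and 9 fell and 2 rose against the control gapmer (median -0.25). Under median ratio scaling the falls were 14 against untransfected cells and 12 against the control gapmer, with 1 and 2 rises. After quantile normalization they were 11 and 7, with 2 rises in each. MT-CYB, a subunit of complex III, was 2675 and 2677, 1833 and 1793, and 1335 and 1466 FPKM, a fall of 0.94 and 0.37, whereas the ribosomal RNA MT-RNR1 rose by 0.58 and 0.65. Polyadenylated histone transcripts rose in 9 of 13 cases and fell in 3 against untransfected cells. Against the control gapmer 8 rose and 4 fell, and 11 of the 13 had calls that remained. Under the control gapmer itself 4 were higher and 6 lower than untransfected. H2AC6 rose by 1.14 against untransfected cells, while H2AX, the damage-marking variant, fell by 0.97.

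Some genes at low levels in every reference library were high under the SCAT7 gapmer, with changes of similar size against both references. GRAMD2A, a protein of contacts between the endoplasmic reticulum and the plasma membrane, was 0.0520 and 0.0606 FPKM untransfected, 0 and 0.0234 with the control gapmer and 24.1 and 17.5 under the SCAT7 gapmer, a log2 change of 5.24 ± 0.15 and 5.36 ± 0.15. At such low reference levels the change is limited by the 0.5 added before the logarithm, which also makes the changes against the 2 references alike. The filter averaged all 16 libraries, so genes this low in the references could enter through the SCAT7 gapmer libraries where they were high. COL9A3, a chain of cartilage collagen IX, was 0.235 and 0.213, 0.234 and 0.258, and 26.2 and 17.6 FPKM (4.93 and 4.88). C8G, at 1.29 to 2.71 FPKM in the 4 reference libraries (4.43 and 4.81), SCUBE2 (4.33 and 4.37), FAM83E (4.26 and 4.33) and the antisense gene SPON1-AS1 (4.41 and 4.03) had similar changes, and in none of these was a difference between the references called. EFCAB8 was 0.0913 and 0.0213 FPKM untransfected and 10.5 and 8.28 with the SCAT7 gapmer, and was at 0 in both control gapmer libraries. RF01684, a short RNA annotated on chromosome 11 (hg38, 65445541 to 65445598, plus strand) directly after the end of NEAT1, was at 0 in all 4 reference libraries and at 11.5 and 13.4 FPKM with the SCAT7 gapmer. A total of 3 reads in the 2 untransfected libraries together would correspond to 0.717 FPKM, so the level was at least 17.4-fold higher, and such a floor covers counting error only. NEAT1, the paraspeckle RNA looked at after this value was seen, was 396 and 438, 364 and 366, and 316 and 305 FPKM, lower than untransfected by 0.42 (adjusted p = 0.0045) and not called against the control gapmer (-0.23, adjusted p = 0.076).

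Among single genes the clearest loss of a rise was CYGB, the oxygen-binding cytoglobin, at 12.2 and 12.0 FPKM untransfected, 4.14 and 3.22 with the control gapmer and 12.6 and 12.1 under the SCAT7 gapmer: 1.62 ± 0.14 against the control gapmer and 0.02 ± 0.14 against untransfected cells. The antisense gene FLG-AS1 (1.37 and 0.05) had a similar loss. The short RNAs U7 (0.99 against untransfected cells, 95% interval -0.13 to 2.11), SNORD39 (1.02, -0.15 to 2.19) and MIR4669 (-0.66, -2.01 to 0.70) lost the call, with intervals too wide to show that a rise was absent. MIR4669 lost its call against the control gapmer as well under several settings. WWOX, an oxidoreductase at a fragile site, lost a fall: 3.25 and 3.38, 9.80 and 9.53, and 2.92 and 3.48 FPKM, or -1.46 and -0.05. GMDS went from -1.45 to 0.12. SNORD12C (-0.41, 95% interval -1.20 to 0.38) and SNORD100 (-0.19, -0.69 to 0.32) lost the call, with wide intervals. MYO1D, an unconventional myosin, was 3.70 and 3.58, 10.2 and 10.6, and 4.99 and 5.68 FPKM and reversed from -0.90 to 0.49; RNF144A reversed from -0.84 to 0.33 and RTN4RL2 from -0.74 to 0.38, the last not called after quantile normalization. AOX1 reversed from 0.93 to -0.29, a fall whose call was lost without untransfected replicate 1 or SCAT7 gapmer replicate 1, and RMI2 (-1.11 and 0.17) kept its reversal under neither rescaling. Genes lower than untransfected under both gapmers, with no call between them, included GAS6-AS1 (-1.39), MIR770, SNORD116-1, TRIM7-AS2 and the adaptor subunit gene AP1M2 (-1.0). That pattern was the condition for choosing them.

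**Figure D5:**
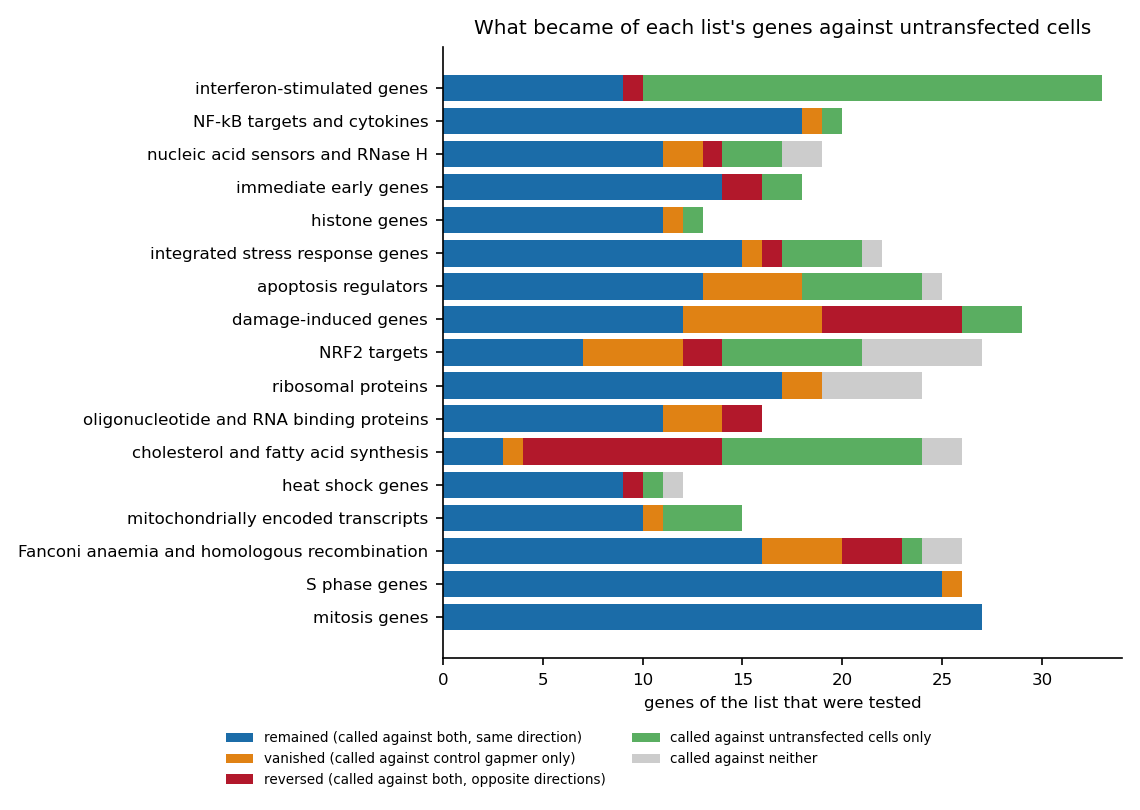
Number of tested genes of each list whose call against the control gapmer remained, vanished or reversed against untransfected cells, or that were called against untransfected cells only. The 27 mitosis genes all remained, 23 of 33 interferon-stimulated genes were called against untransfected cells only, and 10 of 26 cholesterol and fatty acid genes reversed.

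The matching libraries in cisplatin, which share no library with those in solvent, gave the same classes for part of these genes. The drug was given for 24 h, at a dose the labels also print as 15 mM. ELF3-AS1 itself was 2.41 and 2.41 FPKM untransfected, 3.73 and 3.23 with the control gapmer and 1.69 and 2.18 under the SCAT7 gapmer there. It fell by 0.71 against the control gapmer (adjusted p = 0.0036) and was not called against untransfected cells (-0.27, adjusted p = 0.21), the control gapmer being 0.45 above untransfected (adjusted p = 0.047). In cisplatin 8164 genes were called against untransfected cells (47.5%), 4910 higher (28.5%) and 3254 lower (18.9%), and 8545 against the control gapmer (49.7%), 4916 higher (28.6%) and 3629 lower (21.1%). The change against untransfected cells differed between cisplatin and solvent for 1045 genes (6.08%), 667 with a positive difference (3.88%) and 378 with a negative one (2.2%). Of the 3918 rises that remained in solvent, 2646 were called higher against both references in cisplatin too (67.5%, with 17.5% of all genes called so), and of the 2426 falls 1250 were called lower against both (51.5%, with 9.55% of all genes). Of the vanished rises and falls 131 of 1501 and 115 of 1313 were called against both in cisplatin. By list, all 33 interferon-stimulated genes rose against untransfected cells in cisplatin (median 3.76), 22 of 27 mitosis genes fell (median -0.42), and the damage-induced genes had 6 rises and 10 falls (median -0.01). S phase genes, with 25 falls in solvent, had 8 rises and 7 falls against untransfected cells in cisplatin (median -0.0017).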

How the data were processed

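RNA-seq libraries from oligo(dT)-selected RNA were deposited by the authors as 1 table of FPKM per gene. TopHat2, HTSeq 0.6.1 and the build hg38 are named in the submitters' processing notes. The strand setting and annotation release are not given in the sources used here. Identifiers were matched to GENCODE release 29, and 56868 of 60448 had a gene model. The 17198 genes whose FPKM averaged 0.5 or more across all 16 libraries entered 1 limma fit (version 3.58.1, R 4.3.3) of log2(FPKM + 0.5), with a mean for each of the 8 groups, a trended prior and Benjamini-Hochberg adjustment, two-sided at 0.05. The p-values measure the spread between libraries, which may be technical. Depth was recovered by finding the total at which low FPKM values became whole reads within 0.02 reads; 77.0% to 82.0% of low values did, so no count test was run. The fit was tested on simulated data.

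Named genes were the target and its neighbour ELF3, with CDKN1A, MDM2, TOP1, HNRNPK and YBX1. To these came the genes with the largest changes that remained (8 a direction), vanished (5), reversed (4) or were called against untransfected cells only (5). These largest changes were taken at 5 FPKM or more in the highest group. Those that remained also needed both SCAT7 gapmer libraries beyond all 4 reference libraries. Those that vanished needed a called change of the control gapmer against untransfected cells. Those called against untransfected cells only needed that call in the same direction. Up to 4 called members a list were added by size. Other list members were named after their values were seen. The members and lists were chosen with earlier results of these data known. Replicate numbers were checked for pairing (correlations of deviations 0.071, 0.035 and 0.049) and were not treated as pairs. Alternatives were other pseudocounts, filters, scalings, smaller fits, a replicate block and leaving out single libraries. Some genes are not reported here.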

Additional observations from a re-analysis of the deposited data

Results flagged for a closer look

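The 23 genes looked at were 7 chosen by name and the 8 rises and 8 falls that were largest in solvent, so a smaller change in cisplatin is favoured by the choice and the count of 12 is no measure of how common a difference is. For 12 of the 23, the change under the SCAT7 gapmer against untransfected cells differed between cisplatin and solvent by a limma test of that difference, which called 1045 of all 17198 genes (6.08%). ELF3-AS1 itself was one: its fall of 1.66 in solvent stood beside -0.27 in cisplatin (not called, adjusted p = 0.21), a difference of 1.39 (adjusted p = 0.0060), with 2.41 and 2.41 FPKM in untransfected cells and 1.69 and 2.18 with the SCAT7 gapmer in cisplatin. Against the control gapmer ELF3-AS1 fell in cisplatin too, by 0.71 (adjusted p = 0.0036). ELF3 differed by 0.51 (0.45 in solvent and 0.96 in cisplatin), CDKN1A by -0.21 (0.12 and -0.10) and YBX1 by 0.30 (-0.40 and -0.10).

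Falls that remained in solvent were smaller in cisplatin for the cell cycle genes among the 12. The difference was 1.19 for KIF20A (-2.16 and -0.96), 0.96 for PRR11, 1.02 for CENPF, 1.21 for GTSE1, 1.07 for DLGAP5, 0.96 for TOP2A (-1.71 and -0.75) and 0.62 for PIF1. H2AZ1-DT, a divergent transcript of a histone gene, differed by 2.80 (adjusted p = 0.030), from a fall of 1.90 in solvent to 0.90 in cisplatin, not called. Its SCAT7 gapmer libraries in cisplatin were 15.2 and 3.95 FPKM beside 3.19 and 4.92 untransfected, so that value rests on 1 library. Its fall in solvent was not called without SCAT7 gapmer replicate 2 (adjusted p = 0.052).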

How the results depend on the processing

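Over all alternatives the calls against untransfected cells numbered 6620 to 10977, and between 57.1% and 68.9% of the calls against the control gapmer remained. The lowest shares, 57.1% and 58.4%, came without untransfected replicate 1 or 2. The 447 reversals became 280 and 272 without SCAT7 gapmer replicate 1 or 2 (272 to 356 on leaving out single libraries). The 2373 calls against untransfected cells only became 1524 with a filter at 5 FPKM, chosen after seeing the data. The 1045 genes differing between cisplatin and solvent became 538 and 469 without untransfected replicate 1 or 2 and 541 without SCAT7 gapmer replicate 1 (469 to 1078 on leaving out single libraries); this count could not be had from fits without the cisplatin libraries. With a replicate block, calls numbered 9057 against untransfected cells and 9517 against the control gapmer, with 6236 remaining and 2855 vanishing; the samples share only a number. After quantile normalization 4106 genes were higher and 5441 lower than untransfected, 4824 and 4839 against the control gapmer. No gene named by the fixed choice or by size changed direction while called under any setting, in the SCAT7 gapmer comparisons with either reference. List members named later were not part of that check, nor were changes of the control gapmer against untransfected cells. With 2 libraries a group, small changes may be missed, and a vanished call is no proof of equality.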

Other observations

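Of the 3389 genes spanning 35 to 4877 bases, 21.3% rose against untransfected cells and 18.7% fell, and of the 3389 spanning 81782 bases or more, 41.7% rose and 17.4% fell. Against the control gapmer the shares of rises were 23.4% and 42.3% and of falls 15.9% and 20.4%. For the control gapmer against untransfected cells they were 11.2% and 24.8% and 12.6% and 22.1%, so there calls of both directions were more numerous among the long genes. Of 25 apoptosis regulators, 15 were higher and 4 lower than untransfected, beside 30.6% and 22.7% of all genes. Against the control gapmer 13 were higher and 5 lower, beside 33.2% and 22.7%. The falls were no more frequent than over all genes. PMAIP1 of this list, which encodes NOXA, was 42.2 and 43.6 FPKM untransfected, 46.7 and 51.8 with the control gapmer and 102 and 76.9 with the SCAT7 gapmer. BIRC5, the survivin gene, which belongs to this list and to the mitosis genes, fell by 1.46 and 2.51.

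Within 1000000 bases of ELF3-AS1, 32 genes were tested; the calls of 9, ELF3-AS1 and ELF3 included, remained, those of 6 vanished and 4 were made against untransfected cells only. Over all 17198 genes 6344 calls remained (22.8% of genes higher and 14.1% lower), 2814 vanished and 2373 were made against untransfected cells only. Of all genes 55.8% were called against the control gapmer. By these shares the genes near ELF3-AS1 did not stand out. Neighbours whose calls remained included UBE2T, a ubiquitin enzyme of cross-link repair (-0.77 against untransfected cells and -1.69 against the control gapmer), LGR6 (0.44 and 0.71) and the demethylase gene KDM5B (0.20 and 0.68).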
